A study of Equus caballus with 4 samples.

Results

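The tripartite motif (TRIM) genes were followed in equine satellite cells incubated with gamma-oryzanol (GO). The family was taken as every noncontrol probe whose gene symbol in the array files was TRIM with a number, with or without a letter after it. *Trim63* was left out of the family and is given only for comparison. By this rule 39 of the 13350 genes with a symbol were members, with 66 probes. One value was given to each gene, from the probe with the highest mean log2 processed signal over both channels and all arrays.

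Satellite cells are the stem cells of skeletal muscle. They were isolated from the semitendinosus muscle of 6-month-old healthy colts and cultured as primary cells. After day 2 of differentiation 125 nM GO, a mixture of plant sterol ferulates from rice bran, was added for 24 h, and the cells were collected on day 3 of differentiation. Control cells received the vehicle alone, 0.04 μl/ml DMSO, which the GO-treated cells received as well. RNA of GO-treated cells (Cy5) and of control cells (Cy3) was hybridized together on each of 4 two-color arrays of 1 slide. All 4 arrays carried the dyes in the same orientation, so the effects of GO and of the dye cannot be told apart by the design. Muscle was taken from 6 horses and the best-scoring culture was chosen for the study. The labels call the arrays biological replicates, but neither they nor the methods say whether the arrays stand for different horses or for cultures of 1 horse, so the p-values cover only the spread between these arrays.

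Most TRIM proteins carry a RING finger, 1 or more B-boxes and a coiled coil at their amino terminus. Most act as E3 ubiquitin ligases, the enzymes that hand ubiquitin to a chosen target. Their carboxyl terminus differs and sets their place in the cell and their targets. Some TRIM genes are induced by interferon and take part in antiviral defense, others belong to the sarcomere and the microtubules of muscle (the muscle RING fingers), and others act on chromatin.

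The probes below carried the TRIM genes that passed the test. All are 60 bases long and are printed 5′ to 3′ in lower case with their place on EquCab1, as the array files give it. Each has at least 1 reading frame without a stop codon, and the exon that a probe lies in was not analysed here. For *trim21*, 2 probes overlap, and capitals mark the 35 bases that they share. The 2 probes of *trim69* lie end to end and share no long run, so they read different parts of its transcript.
*trim21*, brighter probe, chr7:60048651-60048710, minus strand: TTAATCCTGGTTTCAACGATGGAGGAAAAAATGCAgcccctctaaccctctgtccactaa
*trim21*, other probe, chr7:60048676-60048735, minus strand: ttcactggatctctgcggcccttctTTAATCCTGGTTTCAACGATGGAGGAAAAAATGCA
*trim56*, chrUn:173022654-173022713, plus strand: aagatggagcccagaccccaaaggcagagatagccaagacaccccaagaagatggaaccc
*trim69*, brighter probe, chr1:141721167-141721226, minus strand: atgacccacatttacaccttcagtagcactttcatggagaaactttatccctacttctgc
*trim69*, other probe, chr1:141721107-141721166, minus strand: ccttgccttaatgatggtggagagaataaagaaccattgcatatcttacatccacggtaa
*trim54*, chr15:65586928-65586987, minus strand: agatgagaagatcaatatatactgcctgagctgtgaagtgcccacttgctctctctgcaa
*trim55*, chr9:19003488-19003547, minus strand: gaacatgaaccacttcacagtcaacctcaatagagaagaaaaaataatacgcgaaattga
*trim59*, chr19:562885-562944, plus strand: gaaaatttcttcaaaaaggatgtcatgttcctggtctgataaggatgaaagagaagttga

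The share of spots well above background was 63.5 to 68.9% for control cells and 57.4 to 67.0% for GO-treated cells. Markers of myogenic cells were present, with all 8 of those on the array well above background in both channels of all 4 arrays. None of the 5 endothelial markers was well above background on any array, and 5 of the 10 leukocyte markers on the array (*itgam*, *cd3e*, *cd79a*, *lcp1*, *laptm5*) were not either. All 5 fibroblast markers on the array were well above background, and 1 of them, *pdgfra*, was higher in GO-treated cells (log2 ratio 0.87 ± 0.48, SD, n = 4, limma, adjusted p = 0.020). By the thresholds given below, 3.33% of all genes tested were higher. The cultures were measured in bulk, and fewer cells of a type and less RNA per cell cannot be told apart.

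GO-treated cells had lower levels of 6 TRIM genes and a higher level of none. *Trim69*, *trim21* and *trim56*, which interferon induces, were lower, as were the muscle RING fingers *trim55* and *trim54* and the membrane-bound *trim59*. A probe was tested where either channel was well above background on all 4 arrays. It was called where the adjusted p was 0.05 or less and the levels differed 1.3-fold or more (0.38 on the log2 scale). In all, 26 TRIM genes were tested and 6 were called, whereas 8.7% of the 9058 genes tested were called, 5.37% lower and 3.33% higher. Of these 26 genes, 22 were well above background in both channels on all arrays, and *trim23*, *trim25*, *trim35* and *trim69* met the filter in the control channel alone. With both channels required, 5 of these 22 genes were called, without *trim69*. The log2 ratio, here always GO-treated over control, had a median of -0.03 over the 26 genes and 0.00 over all genes tested, and the median SD over arrays was 0.17 for the TRIM genes and 0.15 for all genes. The mean ratio was below 0 for 15 of the 26 TRIM genes, and 18 had the same sign on all 4 arrays. Signals of the channels did not overlap over the arrays for *trim21*, *trim50* and *trim69*, 3 of 26 genes, all lower in GO-treated cells, beside 7.53% of all genes tested (4.85% with the GO signals lower). For *trim69* the GO signals were at background, so this separation follows in part from the filter. The calls depended on the filter and the test: limma without the filter on dim probes and a plain one-sample test called 0 of the TRIM genes (15 and 11 at an unadjusted p under 0.05), and limma with the channels unpaired called *trim69* alone. Normexp background correction with loess called *trim21*, *trim55* and *trim56*.

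**Figure D1:**
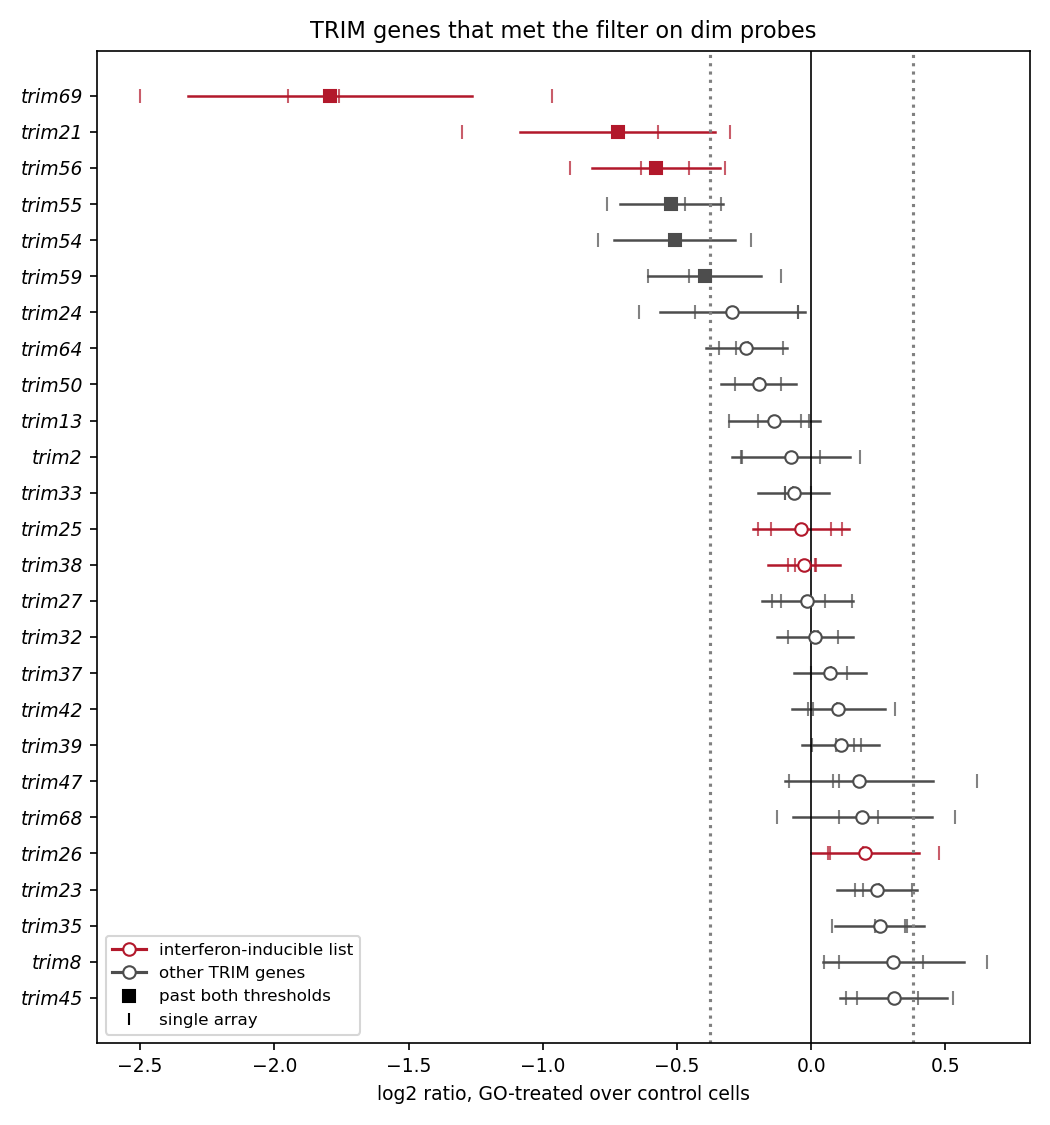
Log2 ratio, GO-treated over control (x axis), for each of the 26 TRIM genes tested (y axis), with the mean of 4 arrays as a symbol, the 95% interval of limma as a line and single arrays as ticks. Red marks the interferon-inducible list, filled squares mark the 6 genes past both thresholds, dotted lines mark a fold change of 1.3, and the means run from -0.72 for *trim21* to 0.31 for *trim45*, apart from *trim69*, whose GO channel was at background.

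The list of interferon-inducible TRIM genes held 8 members on the array, of which 6 were tested. Of these, 3 were lower in GO-treated cells and none was higher, beside 5.37% lower and 3.33% higher over all genes tested. The tested members of the list had a median log2 ratio of -0.31, and the medians on arrays 1 to 4 were -0.22, -0.24, -0.42 and -0.14. The remaining family held 31 genes, of which 20 were tested and 3 were lower, with a median of -0.00 and array medians of 0.01, 0.02, -0.00 and -0.05. The lower median of the interferon-inducible list rested on its 3 called genes, since the other 3 lay between -0.04 and 0.20. With both channels required above background, *trim69* and *trim25* could not be tested, and 2 of the 4 tested members were lower, with a median of -0.30. With *trim8*, *trim35* and *trim68*, for which induction by interferon is less general, counted on the list, its median was -0.03 over 9 tested genes and that of the other 17 was -0.07.

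*Trim69* is a RING ligase reported to restrict some RNA viruses. It met the filter through the control channel, where it was high, and with both channels required it could not be tested. Its signal in control cells was 43.4, 24.4, 40.1 and 19.5 on arrays 1 to 4, and in GO-treated cells 12.8, 6.31, 7.08 and 9.97. The control signal was higher on every array and the channels did not overlap, but the GO signal was well above background on 0 of 4 arrays. The log2 ratios were -1.76, -1.95, -2.50 and -0.96, with a mean of -1.79 ± 0.64 (SD, n = 4, limma, adjusted p = 0.0057). Since the GO channel was at background, the fold is a bound, and the level was at least 1.57-fold lower in GO-treated cells. For this bound the GO signal on each array was raised to the lowest signal of any probe well above background. The probe that abuts it gave -1.67 ± 0.53 (SD, n = 4), and it was not tested, being well above background on 3 arrays in control cells and on 0 in GO-treated cells. After normexp background correction with an offset of 50, which is above the signals of this probe, the log2 ratio was -0.35 and the call was lost.

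*Trim21*, also known as Ro52, is a ubiquitin ligase that binds the constant part of antibodies inside the cell. Its signal in control cells was 197, 185, 262 and 143, and in GO-treated cells 120, 125, 106 and 116. The GO signals were close to each other while the control signals spread more widely, and the largest gap was on array 3. The log2 ratios were -0.71, -0.57, -1.30 and -0.30, with a mean of -0.72 ± 0.42 (SD, n = 4), a 95% interval of -1.08 to -0.36 and a 1.65-fold lower level (limma, adjusted p = 0.025). The overlapping probe gave -0.71, -0.45, -1.28 and -0.17, a mean of -0.65 ± 0.47 (SD, n = 4, limma, adjusted p = 0.043), and it was called as well. The call was lost without array 1 (limma, adjusted p = 0.069) and without array 2 (adjusted p = 0.072).

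*Trim56*, a ligase with antiviral activity against several RNA viruses, gave control signals of 282, 209, 203 and 191 and GO signals of 206, 167, 131 and 103. Each array had the lower signal in the GO channel, although the ranges of the channels overlapped. Its log2 ratios were -0.46, -0.32, -0.64 and -0.90, a mean of -0.58 ± 0.25 (SD, n = 4) with a 95% interval of -0.82 to -0.34, and a level 1.49-fold lower (limma, adjusted p = 0.014). Array 4 had the lowest ratio of *trim56* and the highest of *trim21*. The call was lost without array 3 (limma, adjusted p = 0.055). A further probe of *trim56* was not well above background on any array.

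The other 3 tested members of the list were not called: *trim25*, which ubiquitinates the RNA sensor RIG-I, *trim26* and *trim38*. The log2 ratio of *trim25* was -0.04 ± 0.16 (SD, n = 4), and its 95% interval of -0.22 to 0.14 lay within the fold change threshold. This ratio rests on weak signals, 17.6 to 23.1 in control and 15.3 to 21.6 in GO-treated cells. The GO signal was well above background on 2 of 4 arrays, and the ratio was -0.23 with median centring without lowess. Other probes described as *trim25* were not well above background on any array. The log2 ratio of *trim38* was -0.03 ± 0.05 with an interval of -0.16 to 0.11, and its control signals of 1348 to 1554 overlapped the GO signals of 1362 to 1512. *Trim26* gave 0.20 ± 0.19 with an interval of -0.00 to 0.40, above 0 on all 4 arrays (limma, adjusted p = 0.14). *Trim14*, an adaptor of the mitochondrial antiviral pathway, was dim and not tested, with a ratio of -0.10 ± 0.19. *Trim34* was not tested either, since it was well above background on 1 array in control cells and on 0 in GO-treated cells. *Trim5* and *trim22* were not analysed here.

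**Figure D2:**
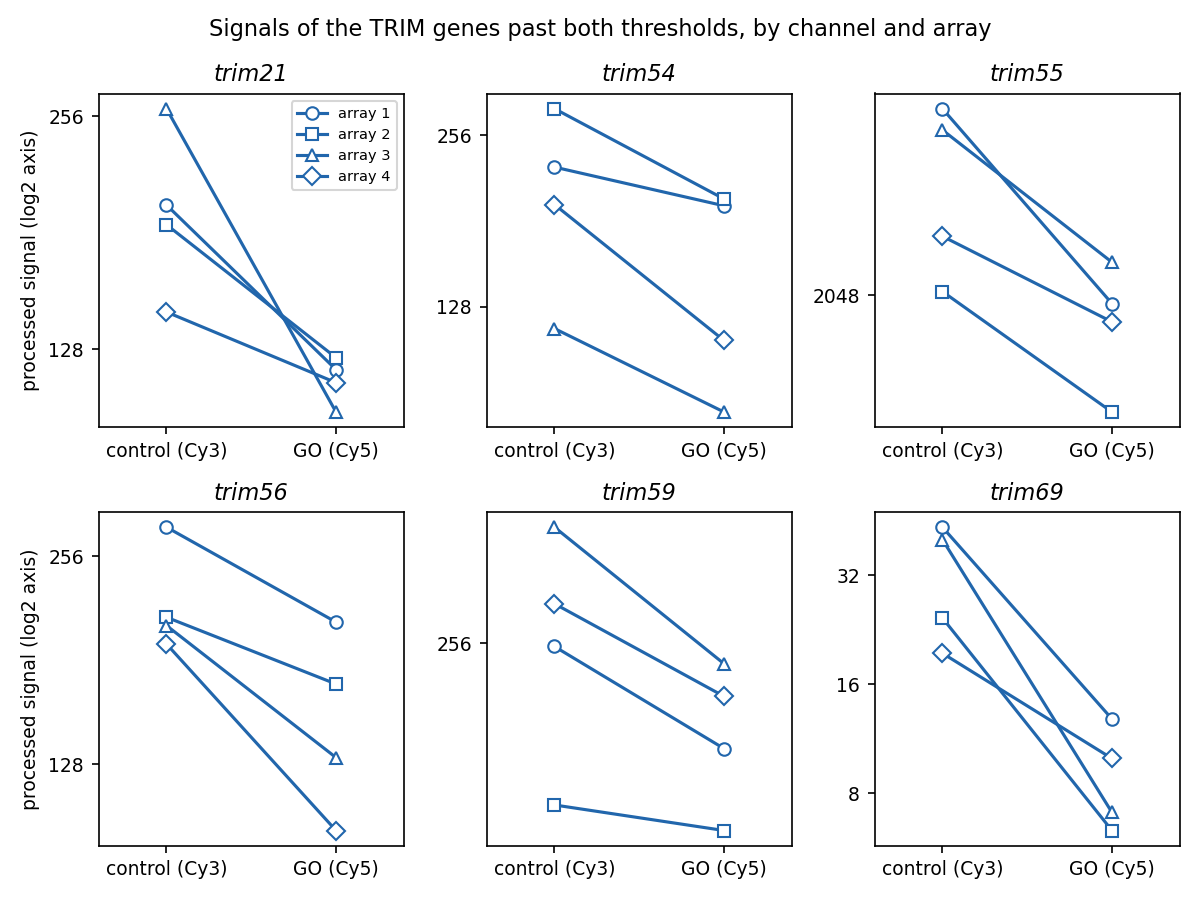
Processed signal (y axes, log2 scale, a separate range for each gene) of the 6 called TRIM genes in control cells (Cy3) and GO-treated cells (Cy5), with a line for each of the 4 arrays. Every line falls from control to GO-treated cells, and the channels are fully apart for *trim21* (143 to 262 against 106 to 125). They are also apart for *trim69* (19.5 to 43.4 against 6.31 to 12.8). That gene met the filter through the control channel and its GO signals were at background, so its separation follows in part from the filter.

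Interferon-stimulated genes outside the family moved in these cells too. Of a list of 25 such genes 20 were on the array and 18 were tested. Of these, 17 were called lower in GO-treated cells, beside 5.37% of all genes tested. *Stat2* was the exception at -0.07 ± 0.27. For 15 of the 18 the GO signal was well above background on every array. It was so on 1 of 4 arrays for *ifit3* and on 3 of 4 for *mx2* and for *xaf1*. These genes met the filter through control cells, so the sizes of their ratios are uncertain, yet they count among the 17 and in the medians. The median log2 ratio of the 18 tested genes was -1.57, with array medians of -2.04, -1.15, -2.42 and -0.96. *Trim21* had its ratios in the same order over the arrays as these medians, the lowest on array 3 and the highest on array 4. *Trim69*, with its GO channel at background, was also lowest on array 3 and highest on array 4, but with arrays 1 and 2 in the other order. *Trim56* followed another order. The summed signal of the list ranged from 23147 to 132134 in control cells and from 12305 to 19648 in GO-treated cells, so the arrays differed more in their control cells. The part of this list in the TRIM results was not tested.

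Signaling partners of the interferon-inducible TRIM proteins were examined as a group. Of 18 listed genes 12 were tested and 4 were lower, beside 5.37% of all genes tested, with a median log2 ratio of -0.28. *Ddx58*, which encodes RIG-I, the sensor that TRIM25 ubiquitinates, fell by 1.00 ± 0.67 (SD, n = 4, limma, adjusted p = 0.032) on the log2 scale. *Trim25* itself was at -0.04, with its GO signal well above background on 2 of 4 arrays. *Ifih1*, which encodes the RNA sensor MDA5, was called lower, but its GO signal was well above background on 1 of 4 arrays, so no size is given for it. It met the filter through control cells, yet it counts among the 4 lower genes and in the median. *Ikbke*, which was not called, met the filter in the same way and counts in the median. Its GO signal was well above background on 3 of 4 arrays. *Irf7*, a transcription factor of interferon genes, was at -2.32 ± 0.43, and *isg15*, a ubiquitin-like modifier, at -2.0 ± 0.44. The kinase *tbk1* (-0.22 ± 0.12) and the adaptor *mavs* (0.01 ± 0.26) were not called, and *traf3* passed the adjusted p but not the fold (0.36 ± 0.07, limma, adjusted p = 0.012).

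**Figure D3:**
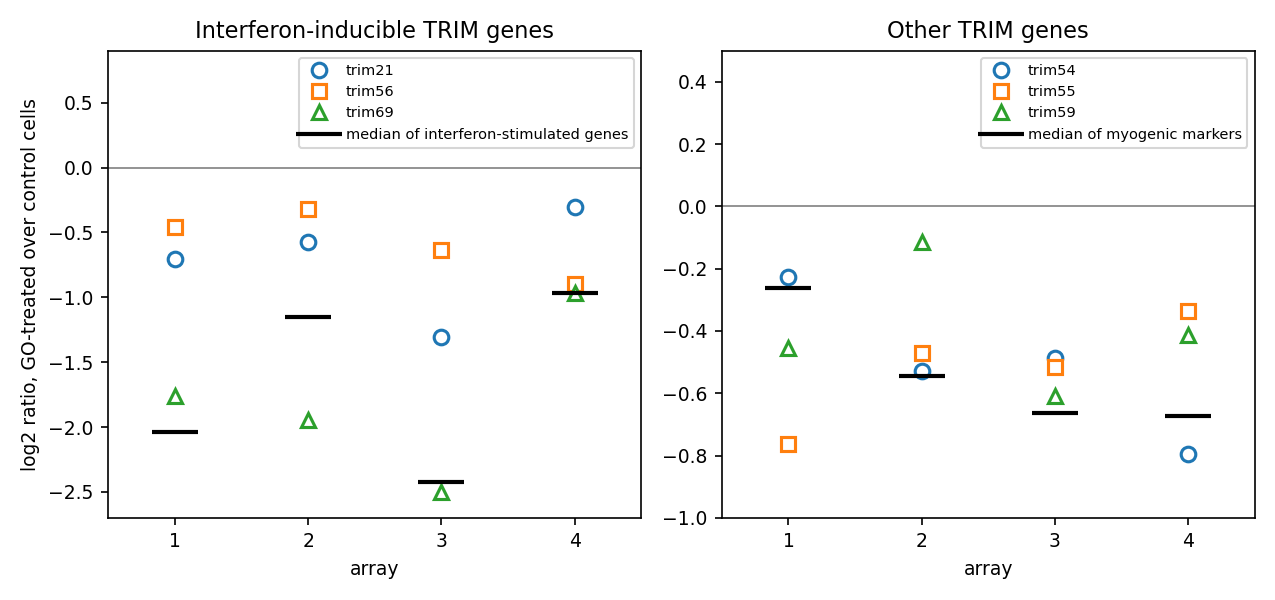
Log2 ratio, GO-treated over control (y axes), on arrays 1 to 4 (x axes), for the 3 called interferon-inducible TRIM genes beside the median of the interferon-stimulated genes (left, black bars) and for the other 3 called TRIM genes beside the median of the myogenic markers (right, black bars). The interferon-stimulated medians run from -2.42 on array 3 to -0.96 on array 4, and the myogenic medians from -0.26 on array 1 to -0.67 on array 4.

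Both muscle RING fingers of the family were lower in GO-treated cells. *Trim55* (MuRF2) links titin and microtubules during sarcomere assembly, and *trim54* (MuRF3) stabilizes microtubules in differentiating muscle. *Trim55* gave control signals of 3395, 2069, 3205 and 2403 and GO signals of 2003, 1493, 2240 and 1906. The GO signal was lower on each array, with overlapping ranges. Its ratios were -0.76, -0.47, -0.52 and -0.33, a mean of -0.52 ± 0.18 (SD, n = 4), with a 95% interval of -0.71 to -0.33 and a 1.43-fold lower level (limma, adjusted p = 0.010). The call of *trim55* was kept whichever array was left out.

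*Trim54* gave control signals of 225, 285, 117 and 194 and GO signals of 193, 198, 83.5 and 112. The ranges overlapped, array 3 being low in both channels. Its ratios were -0.23, -0.53, -0.49 and -0.79, a mean of -0.51 ± 0.23 (SD, n = 4), with a 95% interval of -0.74 to -0.28 and a 1.42-fold lower level (limma, adjusted p = 0.017). *Trim54* was lowest on array 4 and *trim55* on array 1. The call of *trim54* was lost without array 2 (limma, adjusted p = 0.073) and without array 3 (adjusted p = 0.060).

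*Trim63* (MuRF1), which marks muscle proteins for breakdown during atrophy and was left out of the family here, stood at -0.77 ± 0.18 (SD, n = 4, limma, adjusted p = 0.0038), and its 4 probes lay between -0.88 and -0.71. The probes of *trim54* and *trim55* shared no run longer than 9 bases with those of *trim63*. Of the 8 tested markers of myogenic cells, 5 were lower, beside 5.37% of all genes tested: *myf5* (-0.93 ± 0.04), *myh3* (-0.83 ± 0.19), *ncam1* (-0.63 ± 0.22), *des* (-0.61 ± 0.24) and *myog* (-0.40 ± 0.11). The median of the 8 was -0.50, with array medians of -0.26, -0.54, -0.66 and -0.67, and their summed signal was 233329 to 332762 in control cells and 155854 to 224085 in GO-treated cells. The part of these markers in the ratios of *trim54* and *trim55* was not tested.

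The other muscle members were not called. *Trim32*, a ligase mutated in a limb-girdle muscular dystrophy, had a ratio of 0.01 ± 0.08 (SD, n = 4) and a 95% interval of -0.13 to 0.15, within the fold change threshold. Its 5 probes, which shared 56 to 59 bases with each other, lay between -0.02 and 0.13. *Trim72* (MG53), a protein of membrane repair in mature muscle, was not well above background on any array and was not tested.

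*Trim59*, anchored in membranes by a transmembrane segment, gave control signals of 254, 156, 366 and 289 and GO signals of 185, 144, 241 and 217. The GO signal was lower on each array, and the difference was small on array 2. Its ratios were -0.45, -0.11, -0.61 and -0.41, a mean of -0.40 ± 0.21 (SD, n = 4), with a 95% interval of -0.61 to -0.19 and a 1.32-fold lower level, just past the fold threshold (limma, adjusted p = 0.029). The call was lost without array 1 (limma, adjusted p = 0.073), without array 3 (adjusted p = 0.098) and without array 4 (adjusted p = 0.068). The other transmembrane member, *trim13*, had a ratio of -0.14 ± 0.14 on its brighter probe and -0.23 ± 0.16 on the other, neither of them called.

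By the build of the carboxyl terminus, both tested members with a COS box alone, *trim54* and *trim55*, were lower. Of the 19 members grouped here under a PRY-SPRY domain, a fold that binds other proteins, 11 were tested. Of these, 2 were lower, *trim21* and *trim69*, beside 5.37% of all genes tested, and the median of the 11 was -0.01. Among those not called were *trim47* (0.18 ± 0.30), *trim39* (0.11 ± 0.08) and *trim50*, whose channels did not overlap although its ratio was only -0.20 ± 0.07 (limma, adjusted p = 0.062). Neither tested member with a PHD finger and a bromodomain, the readers of histone marks, was called: *trim24* was at -0.29 ± 0.29 and *trim33* at -0.07 ± 0.05. Of the partners of that group 10 were tested and 1 was lower, *cbx1*, a heterochromatin protein, at -0.49 ± 0.32 (limma, adjusted p = 0.039). A single call among so few genes is near the share over all genes tested. Of the 4 members with NHL repeats 2 were tested and neither was called, *trim32* and *trim2* (-0.08 ± 0.22). A further 5 members, *trim56* and *trim64* among them, were not placed in a group by build.

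No TRIM gene rose past both thresholds. Among the genes tested, the highest ratios were those of *trim45* and *trim8*, both 0.31 (SD 0.19 and 0.28, n = 4), and *trim35* (0.26 ± 0.13). *Trim45*, a member with a filamin repeat, was higher on each array, by 0.53, 0.17, 0.40 and 0.13, and passed the adjusted p alone (limma, 0.048). So did *trim35* (0.048) and *trim23* (0.25 ± 0.09, 0.040), a member that carries a GTPase domain of the ARF kind, whereas *trim8* missed it (0.099). *Trim64* passed the adjusted p in the other direction, at -0.24 ± 0.10 (0.044). In all, 10 of the 26 TRIM genes passed the adjusted p alone, beside 17.3% of all genes tested. *Trim37* (0.07 ± 0.05) and *trim42* (0.10 ± 0.15) were not called.

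For 6 TRIM genes more than 1 probe was tested, and the probes of a gene did not all agree. For *trim68*, an androgen receptor coactivator, the brightest probe gave 0.19 ± 0.28 (SD, n = 4), while the other 3 tested probes gave -0.11, -0.17 and -0.27. These 4 probes share 57 to 59 bases with each other, and the 2 printed next differ by a shift of 2 bases, with the 58 bases they share in capitals.
*trim68*, brightest probe, chr7:60277251-60277310, minus strand: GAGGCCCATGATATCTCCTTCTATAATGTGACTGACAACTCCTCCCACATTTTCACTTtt
*trim68*, lowest tested probe, chr7:60277253-60277312, minus strand: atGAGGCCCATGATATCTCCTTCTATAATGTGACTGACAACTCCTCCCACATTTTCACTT
None of the *trim68* probes was called, and the direction of *trim68* was therefore not settled by these arrays. *Trim27*, a PRY-SPRY member, gave -0.01 ± 0.14 on its brightest probe and -0.09 and 0.18 on the others, which share no long run with it, and *trim39* gave 0.11 and -0.04. Probes of different TRIM genes shared no run longer than 10 bases.

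**Figure D4:**
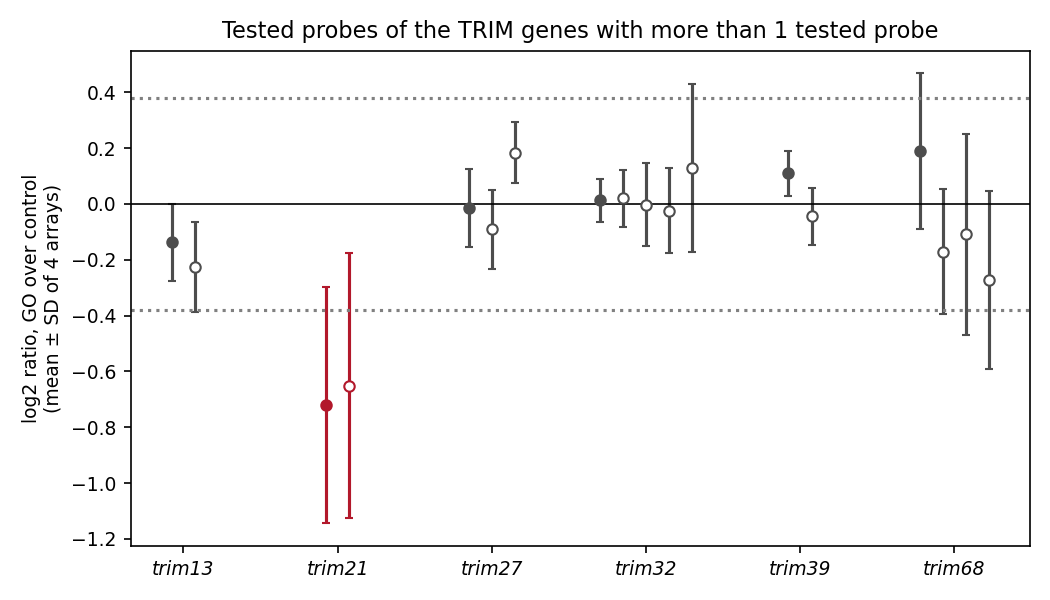
Log2 ratio, GO-treated over control (y axis, mean ± SD of 4 arrays), for each tested probe of the 6 TRIM genes with more than 1 tested probe (x axis); filled points are the brightest probe of a gene, red marks the interferon-inducible list and dotted lines mark a fold change of 1.3. Both probes of *trim21* lie past the threshold, at -0.72 and -0.65, while the *trim68* probes fall on both sides of 0, from -0.27 to 0.19.

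The remaining 13 members were too dim to be tested. *Trim10*, *trim29*, *trim46*, *trim71* and *trim72* were not well above background on any array in either channel. *Trim3*, *trim14*, *trim15*, *trim34*, *trim36*, *trim41*, *trim58* and *trim65* were well above background on some arrays. *Trim58* was well above background on 1 array in GO-treated cells, with signals of 4.07 in control and 31.4 in GO-treated cells on array 1 and 3.26 to 7.49 in either channel elsewhere. *Trim3* and *trim36* were above control on all 4 arrays, with ratios of 0.73 ± 0.49 and 0.40 ± 0.25.

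Genes tied to the family by function or descent were counted in the same fit. Of 9 tested ubiquitin-conjugating enzymes that serve TRIM ligases 1 was lower, *ube2l6* (-1.26 ± 0.65, limma, adjusted p = 0.016), the enzyme that also conjugates ISG15. The median of the 9 was 0.00, and a single call among so few genes is near the 5.37% lower over all genes tested. Family members under other symbols, such as *pml* and *mid1*, numbered 5 on the array and 2 tested, and neither was called; *mid1* stood at -0.38 ± 0.19, just short of the fold threshold (limma, adjusted p = 0.029). A further 24 probes were described in the files as TRIM genes without carrying the symbol. They stood for 15 genes, 13 of which had no member of that name, and of the 11 probes tested none was called by limma, beside 8.94% of all probes tested (5.61% lower), with ratios from -0.45 to 0.23. Of these, 4 probes of *trim44* gave -0.24 to -0.20, and *trim28*, the corepressor KAP1, gave -0.03 ± 0.46.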

How the data were processed

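RNA of GO-treated (Cy5) and control (Cy3) cells was measured on 4 horse arrays. The authors scanned the arrays and ran Feature Extraction, version 10.10.1.1 per the file headers. For each channel the authors deposited intensities of 4 kinds: the mean signal, the local background, their background-subtracted form, and a processed signal that was detrended and then normalized between dyes (linear and lowess). The deposited log10 ratios are processed Cy5 over processed Cy3 signals, and the table of the series holds the same ratios (180880 of 180880 values equal, within 1e-09). They were converted here to log2.

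Control spots and spots marked as outliers (10 to 19 an array) were left out, and spots of 1 probe were averaged. No spot was saturated. Of 43603 probes, 26832 met the filter on dim probes, and 24962 of all probes carried a symbol. Each probe's 4 ratios were tested against 0, two-sided, with limma (version 3.58.1; R version 4.3.3), with lmFit, eBayes (prior SD 0.144 with 3.60 degrees of freedom, 3 residual) and Benjamini-Hochberg adjustment over the probes tested. The thresholds are those of the study's methods. Errors are SDs over arrays and intervals are limma's at 95%. The 4 arrays limit the precision, and with a single slide there was no batch to test. On simulated ratios of 26831 probes with 200 changed, limma recovered 30% of them at a log2 change of 0.5, 91.5% at 1 and 98.5% at 2, with 1, 8 and 8 false calls. In the data 2399 probes were called, far more than were changed in the simulation, so these recoveries need not hold for the data. The ratio within an array pairs its channels. Over 26831 probes, deviations from the group means correlated at 0.60, 0.86, 0.73 and 0.48 between channels of 1 array and at -0.54 to 0.24 between arrays. Taking deviations from means over the same 4 arrays by itself lowers the correlations between arrays, so part of this contrast is built in.

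The members and the gene lists were chosen with earlier results of these data known, so no test over the members was made. The text names every interferon-inducible TRIM gene, every called one, the muscle TRIM genes, the 3 highest and the 3 lowest ratios, genes whose probes disagree and called genes of the partner lists. Others were named after their values were seen, to account for all members. Probe sequences and EquCab1 positions are those of the files, and neither that genome nor promoters were analysed here. Alternatives tried were normexp (offset 50) with loess, median centring without lowess, centred lowess ratios, no filter, a filter on both channels, a plain one-sample test, separate channels, array weights, leaving out each array, the mean of all tested probes of a gene, and a broader interferon list. Tables and figures were made in Python (version 3.11.15) with pandas (version 2.3.3) and matplotlib (version 3.10.9).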

Additional observations from a re-analysis of the deposited data

How the results depend on the processing

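The 6 called TRIM genes kept a negative ratio under every alternative in which they could be tested. Each was negative on all 4 arrays, so leaving out or weighting arrays could not turn the sign. Alternatives that changed only the filter, the test or the pairing reused the same ratios, so their sign was fixed as well. The main setting called 8.94% of all probes. All 6 remained called with median centring without lowess (12.3% of all probes called) and with centred lowess ratios (8.91%). They also remained with the mean of all probes of a gene (8.69% of genes called). With array weights 5 remained (without *trim59*), with 9.2% of all probes called. With both channels required above background 5 remained and 8.4% of probes were called, and *trim69*, *trim23*, *trim25* and *trim35* could not be tested. With normexp and loess 3 remained (*trim21*, *trim55*, *trim56*), 1 of them outside the interferon-inducible list, while 4.83% of all probes were called. With no filter on dim probes limma called 0 TRIM genes, 0 of the list and 0 of the others (15 at an unadjusted p under 0.05), while 2.08% of all probes were called. The plain one-sample test called 0 in each group as well (11 at an unadjusted p under 0.05), with 0.548% of all probes called. Without the pairing of channels (no replicate block) limma called 1 TRIM gene, *trim69*, which is 1 of the list and 0 of the others, with 1.38% of all probes called. Leaving out single arrays gave 3 to 5 called TRIM genes, 2 to 3 of the list and 1 to 2 of the others, and the lowest count was without array 3. Of all probes, 5.84 to 9.06% were called in these fits. The median of the interferon-inducible list was -0.42 with median centring without lowess, -0.20 with normexp and loess and -0.029 with the broader list, and that of the other TRIM genes was -0.040 with both channels above background and -0.065 with the broader list. *Trim68* turned to -0.090 with the mean of its probes. The causes of these shifts were not tested. No scaling moved the median of all tested probes beyond -0.01 to 0.00. Signal over background limits 13 TRIM genes too dim to test and 4 tested ones (*trim23*, *trim25*, *trim35*, *trim69*) whose GO channel was not well above background on every array.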
